A study of Homo sapiens with 27 samples.

Results

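The enzymes of de novo purine and pyrimidine synthesis were examined after SIRT3 knockdown in diffuse large B-cell lymphoma (DLBCL) cell lines. The group was defined by name and holds PPAT, GART, PFAS, PAICS, ADSL, ATIC, IMPDH1, IMPDH2, CAD and DHODH. All 10 genes were found among the 27115 genes listed for each library. RNA-seq libraries had been made from the human lines Karpas422, OCI-LY1 and HBL1, which the study assigns to its OXPHOS, GCB and ABC subtypes in that order. Each line was infected with a lentivirus that coexpressed YFP with a scrambled hairpin (shCtr), shSIRT3-1 or shSIRT3-2, was selected with puromycin, and was collected at day 8 after infection, with 3 libraries in each of the 9 groups and 27 libraries in all. The vector and the selection were therefore shared by knockdown and control cells, and each subtype was represented by 1 line, so that line and subtype cannot be told apart. The study describes the knockdown as replicated within each line, without saying whether the 3 libraries of a group came from separate infections, and p-values measure the spread between these libraries.

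Purine synthesis builds the ring of inosine monophosphate (IMP) on ribose phosphate from glutamine, glycine, aspartate, bicarbonate and formyl groups carried by folate. IMP is then turned into AMP or, through the IMP dehydrogenases, into GMP. Pyrimidine synthesis assembles the ring first, from glutamine, bicarbonate and aspartate, and passes through the mitochondrial enzyme DHODH on the way to UMP. Dividing B cells and B-cell lymphomas draw heavily on these routes, and IMP dehydrogenase is the target of the immunosuppressant mycophenolic acid. SIRT3, the protein that was depleted, is a mitochondrial NAD-dependent deacetylase.

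Values are CPM, read counts that the authors scaled to a fixed total per library with no correction for gene length, and the recovered reads on genes ranged from 28694398 to 53405456 per library. The least covered enzyme, DHODH, had 403 to 983 reads per library and the other 9 had at least 786. SIRT3 itself was lower in every knockdown library than in every control library of its line. In Karpas422 it measured 9.14 to 10.2 CPM with shCtr, 2.44 to 2.79 with shSIRT3-1 and 4.41 to 6.24 with shSIRT3-2. In OCI-LY1 it measured 9.98 to 13.8 with shCtr, 1.06 to 2.23 with shSIRT3-1 and 4.06 to 6.17 with shSIRT3-2. The HBL1 values were 13.5 to 16.4 with shCtr, 2.00 to 2.39 with shSIRT3-1 and 2.84 to 3.82 with shSIRT3-2. Over the lines SIRT3 was at 0.18 of its control level with shSIRT3-1 and at 0.39 with shSIRT3-2, so its depletion was less deep with shSIRT3-2 (adjusted p = 4.6e-05 for the difference, limma). Its exons overlap those of RIC8A on the opposite strand, and the library kit does not mark strand, so their reads cannot be told apart. The B-cell markers CD79A, CD79B, PAX5 and MS4A1 were at 136 CPM or more in every library and CD22 at 4.55 or more. The myeloid and epithelial lists summed to at most 1.26 and 7.28 CPM, and KRT19 was at 0 in all 27 libraries. The T-cell list summed to at most 0.103 CPM in OCI-LY1 and HBL1 but to 18.5 to 43.3 CPM in Karpas422, most of it CD3G.

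A few libraries stood apart from the others of their group. HBL1 shSIRT3-1 replicate 3 was lower than both other replicates of its group for 9 of the 10 enzymes, with a median log2 difference of -0.79, against -0.02 for all genes tested. The same library had a summed level of 13 proliferation markers of 453 CPM, against 1304 and 1499 CPM in the other replicates, and the lowest mean correlation with its own replicates of all 27 libraries (r = 0.958, against 0.9755 to 0.995 elsewhere, across genes, which are not independent replicates). OCI-LY1 shCtr replicate 2 carried 1515 CPM of serine and folate enzymes, against 655 and 706 CPM in the other OCI-LY1 controls. For the 10 enzymes it did not stand apart: 3 were below and 1 above both other controls, with a median log2 difference of -0.13. Karpas422 shSIRT3-2 replicate 3 was also below both other replicates for 9 of the 10 enzymes, with a median log2 difference of -0.44. Such shifts were not particular to these libraries. HBL1 shSIRT3-2 replicate 3 was below both others for 9 enzymes (median -0.14). HBL1 shSIRT3-1 replicate 2 was above both for 10 (0.41), and replicate 1 of the OCI-LY1 and HBL1 controls for 9 each (0.27 and 0.18). No fit left out any of these others alone. Results that rest on HBL1 shSIRT3-1 replicate 3, OCI-LY1 shCtr replicate 2 or Karpas422 shSIRT3-2 replicate 3 are given with and without that library, where leaving it out changed a call. The part of these 3 in other results was not tested.

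The enzymes lie on 8 chromosomes. In hg19, the build of the alignment, PPAT occupies chr4:57259528-57301781 on the minus strand and PAICS chr4:57301907-57330744 on the plus strand, so the genes are divergent neighbours with 125 bases between their annotated 5′ ends. GART is at chr21:34876238-34915797 on the minus strand, PFAS at chr17:8150936-8173809 and ADSL at chr22:40742465-40786467 on the plus strand, and ATIC at chr2:216176679-216214496 on the plus strand. IMPDH1 is at chr7:128032331-128050040 and IMPDH2 at chr3:49061758-49066880, both on the minus strand, while CAD at chr2:27440237-27466811 and DHODH at chr16:72042487-72061563 are on the plus strand. No exon of the 10 overlaps an exon of another gene listed in the files. IMPDH1 and IMPDH2 encode closely related proteins, yet their canonical transcripts share 0 identical stretches of 50 bases, the read length, so an exact read of either transcript cannot come from the other. Of these stretches, 28.4% for ADSL, 11.5% for IMPDH1 (9 of whose matches are named as IMPDH1 pseudogenes) and 10.6% for PPAT recur in other annotated genes. Reads could be split where these lie elsewhere in the genome. Exons of ADSL and PPAT overlap unlisted gene models at their own loci, and the part of these models in the shares was not separated. Stretches shared with genes listed in the files made up at most 3.16%, for DHODH. Nearly all stretches of IMPDH2 recur only in overlapping gene models that the files do not list.

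The stretch between PPAT and PAICS is shown because a single short region lies upstream of both genes and because their levels were later found to part in some knockdown libraries. The stretches upstream of PFAS and IMPDH1 are shown because these were the enzymes that rose with both hairpins when all libraries were fitted. All come from RefSeq on GRCh38.p14, are printed 5′ to 3′ and stop at the base before the annotated start, and capitals mark GGGCGG, the GC box, on either strand.
PPAT-PAICS, chr4:56435616-56435751, plus strand: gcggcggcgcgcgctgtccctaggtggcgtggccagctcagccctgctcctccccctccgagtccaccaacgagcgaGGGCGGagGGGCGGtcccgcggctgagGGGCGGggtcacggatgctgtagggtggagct
PFAS, chr17:8249039-8249288, plus strand: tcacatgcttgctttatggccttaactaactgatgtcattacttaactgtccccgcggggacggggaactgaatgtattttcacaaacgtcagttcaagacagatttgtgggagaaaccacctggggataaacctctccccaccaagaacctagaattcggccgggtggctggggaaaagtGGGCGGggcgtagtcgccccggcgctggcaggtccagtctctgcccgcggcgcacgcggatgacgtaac
IMPDH1, chr7:128409983-128410232, minus strand: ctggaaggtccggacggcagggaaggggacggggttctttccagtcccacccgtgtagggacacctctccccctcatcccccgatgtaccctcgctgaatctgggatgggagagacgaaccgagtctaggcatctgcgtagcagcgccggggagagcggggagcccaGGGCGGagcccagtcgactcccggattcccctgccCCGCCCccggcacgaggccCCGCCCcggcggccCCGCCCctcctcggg

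The region of 136 bases between PPAT and PAICS had a G and C content of 75% and held 3 GC boxes, all within 59 bases of the PAICS start. The 250 bases upstream of IMPDH1 held 4 GC boxes and the same length upstream of PFAS held 1. The table used has windows of 300 bases (250 before and 50 after a start) for 8 of the 10 enzymes, with more than 1 window for GART and PAICS, and none was used for ADSL and IMPDH2. All 8 held GGGCGG in some window, against 44.9% of all 34943 windows of this length. The E-box CACGTG, the kind of site bound by MYC, lay in a window of 4 of the 8, namely ATIC, DHODH, PAICS and PPAT, against 7.23% of all windows. The PPAT and PAICS matches are a single site, which lies 40 bases past the PAICS start and 182 before the PPAT start. CCAAT was found for CAD, DHODH and GART (34.6% of all windows). TGATGNAA, the core of the element that ATF4 and C/EBP factors bind, was in no window of the 8 and in 3.62% of all windows. Both strands were searched for each motif, and a match describes letters in a window.

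The first comparison asks how far the enzymes differ between the lines before SIRT3 is depleted. IMPDH2 had the highest level per kb of canonical exon in every line, and DHODH the lowest. In shCtr cells its mean was 127 ± 1.5 CPM per kb for HBL1, 109.7 ± 11 for Karpas422 and 76.1 ± 8.0 for OCI-LY1 (SD, n = 3). ATIC, which closes the purine ring to give IMP, followed at 49.0 ± 3.3 CPM per kb for Karpas422, 50.2 ± 5.6 for OCI-LY1 and 55.8 ± 6.3 for HBL1, the order of lines kept for the next values. GART, which carries several early and middle steps, was next at 32.6 ± 4.0, 36.8 ± 4.2 and 41.9 ± 3.5 CPM per kb. IMPDH1 was far below its paralogue at 6.98 ± 0.12, 7.62 ± 1.2 and 4.82 ± 0.14 CPM per kb, and DHODH lay at 1.15 ± 0.092, 1.64 ± 0.22 and 1.44 ± 0.072 CPM per kb. In Karpas422 and OCI-LY1, PAICS followed GART at 28.9 ± 4.9 and 29.1 ± 4.5 CPM per kb, and the libraries of the pair overlapped in both lines, whereas in HBL1 PAICS lay at 12.8 ± 1.2, below ADSL (19.8 ± 3.0) and CAD (19.5 ± 4.1). CAD and ADSL were at 15.7 ± 1.0 and 15.4 ± 2.5 CPM per kb in Karpas422, where they overlapped, and at 14.4 ± 1.8 and 10.01 ± 1.8 in OCI-LY1. PPAT and PFAS were neighbours in the order in every line, at 11.9 ± 0.33 and 9.24 ± 0.97 CPM per kb for Karpas422, where they did not overlap, and at 10.54 ± 0.64 and 10.6 ± 1.5 for OCI-LY1 and 5.74 ± 0.52 and 4.96 ± 0.98 for HBL1, where they did.

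HBL1 stood apart through low PPAT, PFAS, PAICS and IMPDH1. Relative to Karpas422 its PPAT level was 0.48-fold (log2 -1.05, SE 0.10), its PFAS level 0.53-fold (log2 -0.91, SE 0.16), its PAICS level 0.45-fold (log2 -1.16, SE 0.16) and its IMPDH1 level 0.69-fold (log2 -0.53, SE 0.13), while GART was 1.29-fold higher (adjusted p from 5.4e-06 to 0.031, limma). These 5 of 10 were the enzymes that passed, against 67.8% of all genes tested, so the enzymes separated these lines no more often than genes at large. Relative to OCI-LY1 the same 4 were lower in HBL1, at 0.545-, 0.465-, 0.442- and 0.640-fold, and ADSL (1.98-fold), IMPDH2 (1.68-fold) and CAD (1.34-fold) were higher, which makes 7 of 10 against 67.3% of genes. The CAD difference from OCI-LY1 had an adjusted p of 0.035 and did not pass without OCI-LY1 shCtr replicate 2 (0.10). Karpas422 and OCI-LY1 were closer, with 3 of 10 against 63.6% of genes: ADSL was 1.54-fold and IMPDH2 1.44-fold higher in Karpas422, and DHODH 0.71-fold.

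**Figure D1:**
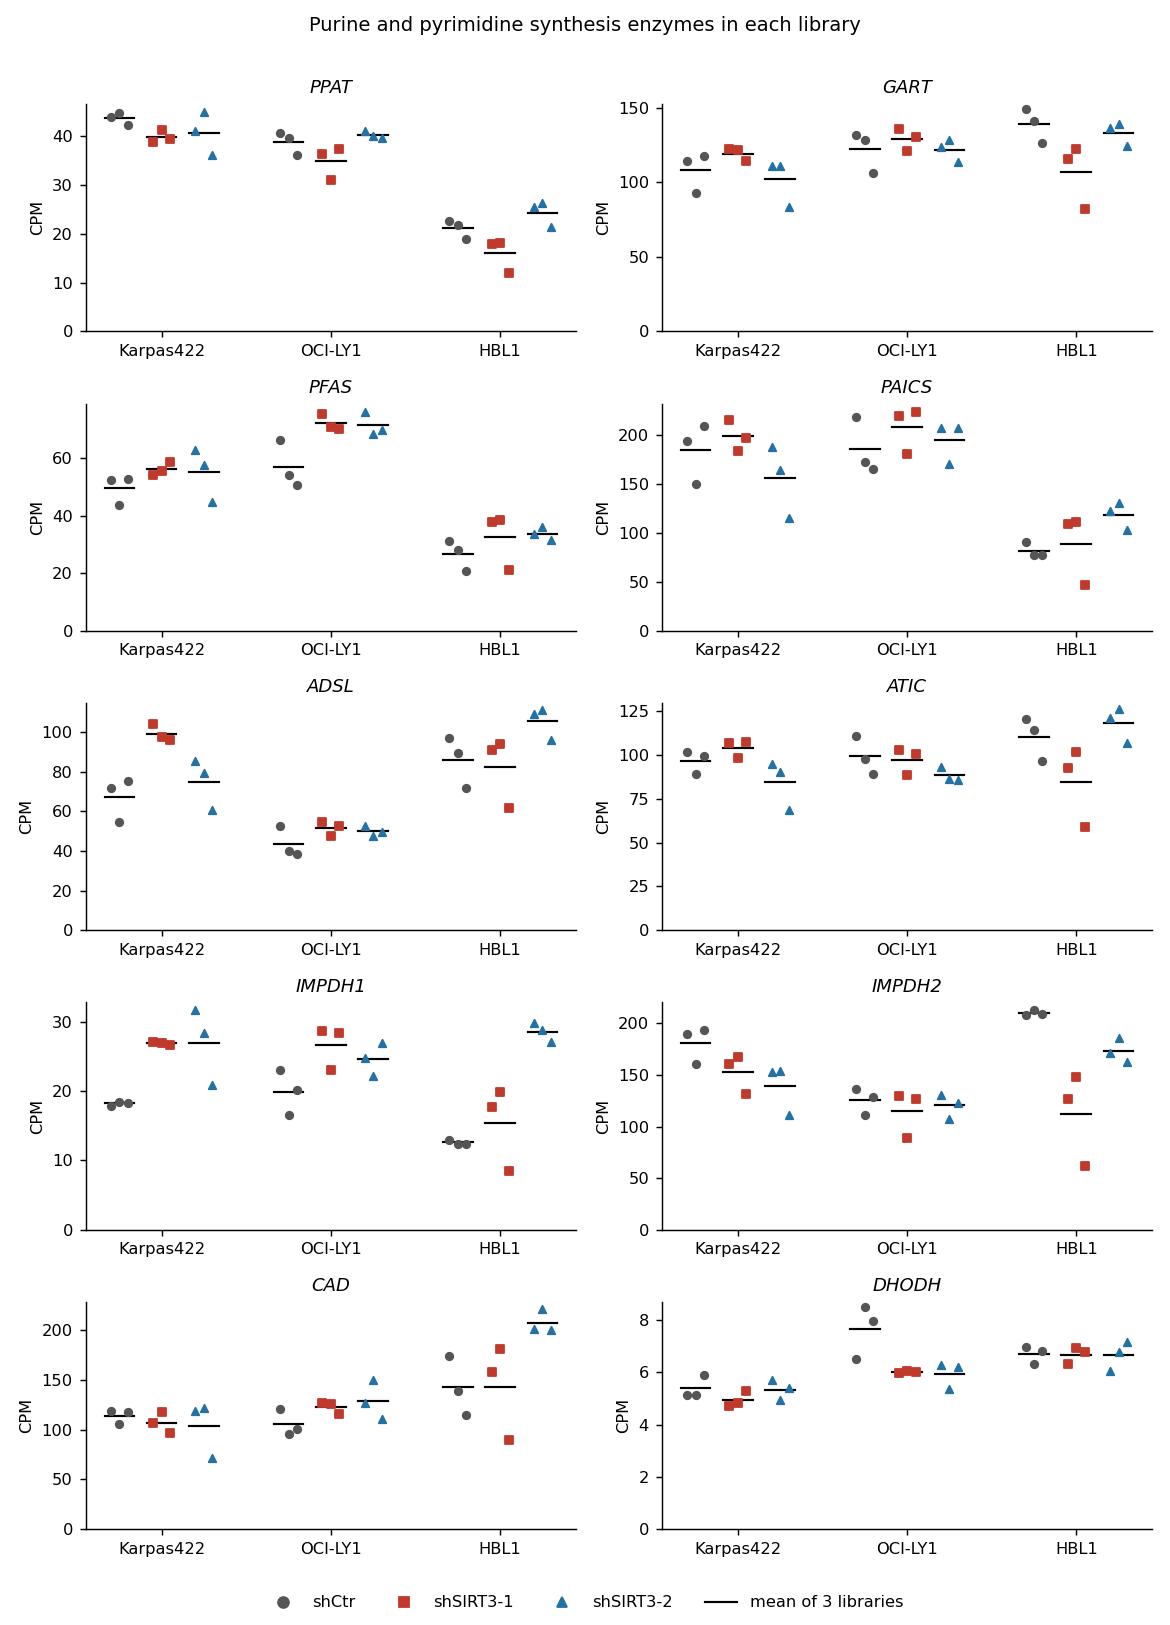
CPM of each enzyme in all 27 libraries on linear axes that start at 0, by cell line, with 3 libraries per shRNA in the order of their replicate numbers and the mean as a bar. PPAT, PFAS and PAICS sit lowest in HBL1, IMPDH1 is at 17.9 to 18.4 CPM in the Karpas422 controls and at 20.9 or more in all its knockdown libraries, and HBL1 shSIRT3-1 replicate 3 (the rightmost square) lies below the other replicates for most enzymes.

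The main comparison asks whether SIRT3 knockdown moved the enzymes over the 3 lines, in a limma fit with the line as a covariate. The changes were small. With shSIRT3-1 the fitted levels ran from 0.73-fold (IMPDH2) to 1.31-fold (IMPDH1) of control, and with shSIRT3-2 from 0.84-fold (IMPDH2) to 1.599-fold (IMPDH1). PFAS and IMPDH1 rose with both hairpins, and IMPDH2 and PPAT fell with shSIRT3-1. With shSIRT3-1, 4 of 10 passed an adjusted p of 0.05, 2 higher and 2 lower, against 37.9% of the 13076 genes tested (15.6% higher and 22.3% lower), and none of these exceeded 1.5-fold (13% of genes). With shSIRT3-2, 2 of 10 passed, both higher, against 38.1% of genes (16.3% higher), and IMPDH1 alone exceeded 1.5-fold (13.5% of genes). PFAS and IMPDH1, 2 of 10, rose with both hairpins, against 7.65% of genes. Without OCI-LY1 shCtr replicate 2, 2 passed with shSIRT3-1 and 1 with shSIRT3-2, against 35.9% and 35.1% of genes. In that fit PFAS passed with neither hairpin and IMPDH1 did not pass with shSIRT3-1, so neither rose with both. The median log2 change of the 10 was -0.01 with shSIRT3-1 and 0.08 with shSIRT3-2, against -0.05 and -0.03 for all genes tested. Without Karpas422 shSIRT3-2 replicate 3, ADSL (log2 0.28, adjusted p = 0.038) and CAD (log2 0.32, adjusted p = 0.031) also passed with shSIRT3-2, which made 4 of 10, all higher, against 37.5% of genes in that fit (15.7% higher).

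The IMP dehydrogenases gave the clearest pattern. These paralogues catalyse the same step, the oxidation of IMP that commits it to guanine nucleotides, and IMPDH2 is the form usually linked to proliferating cells. IMPDH1 in Karpas422 measured 17.9, 18.4 and 18.3 CPM with shCtr, 27.1, 26.98 and 26.6 with shSIRT3-1, and 31.6, 28.5 and 20.9 with shSIRT3-2. In OCI-LY1 IMPDH1 measured 23.0, 16.6 and 20.1 CPM with shCtr, 28.7, 23.1 and 28.3 with shSIRT3-1, and 24.8, 22.1 and 26.98 with shSIRT3-2. In HBL1 IMPDH1 measured 13.0, 12.4 and 12.4 CPM with shCtr, 17.7, 19.9 and 8.54 with shSIRT3-1, and 29.8, 28.8 and 27.02 with shSIRT3-2. The knockdown libraries lay above all controls of their line in 4 of 6 comparisons, and overlapped them with shSIRT3-2 in OCI-LY1 and with shSIRT3-1 in HBL1, the latter through replicate 3. In these 6 comparisons 30.9% to 60.9% of genes tested had no overlap, in either direction. This share stands beside every such statement for a single enzyme below. Over the lines IMPDH1 rose by 0.39 on the log2 scale with shSIRT3-1 (SE 0.15, adjusted p = 0.040, limma) and by 0.68 with shSIRT3-2 (SE 0.15, adjusted p = 0.0010). The shSIRT3-1 call was lost without OCI-LY1 shCtr replicate 2 (adjusted p = 0.064).

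IMPDH2 went the other way. In Karpas422 it measured 189.5, 160.2 and 194 CPM with shCtr, 160.3, 167 and 131 with shSIRT3-1, and 152, 154 and 111 with shSIRT3-2. In OCI-LY1 IMPDH2 measured 137, 111 and 129 CPM with shCtr, 129.6, 88.8 and 127 with shSIRT3-1, and 130.5, 108 and 123 with shSIRT3-2. In HBL1 IMPDH2 measured 208, 213 and 209 CPM with shCtr, 126, 148 and 62.2 with shSIRT3-1, and 171, 186 and 162 with shSIRT3-2. The HBL1 knockdown libraries all lay below the controls with either hairpin, as did those of Karpas422 with shSIRT3-2, while the groups overlapped in the other 3 comparisons. Over the lines IMPDH2 fell by 0.46 on the log2 scale with shSIRT3-1 (SE 0.15, adjusted p = 0.014, limma). Its value with shSIRT3-2 was -0.24 (95% confidence interval -0.54 to 0.05, adjusted p = 0.19). Without HBL1 shSIRT3-1 replicate 3 the change with shSIRT3-1 was -0.31 (adjusted p = 0.011) and that with shSIRT3-2 passed (adjusted p = 0.034), and without the HBL1 line the change with shSIRT3-1 was -0.19 (adjusted p = 0.22).

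The ratio of IMPDH2 to IMPDH1 within a library does not depend on how libraries are scaled. It was looked at after the values of both genes had been seen and is given as a description without a test. In CPM per kb the ratio in Karpas422 was 13.7 to 16.8 with shCtr, 7.81 to 9.81 with shSIRT3-1 and 7.62 to 8.56 with shSIRT3-2. In OCI-LY1 it was 9.40 to 10.6 with shCtr, 6.09 to 7.14 with shSIRT3-1 and 7.22 to 8.33 with shSIRT3-2. In HBL1 it was 25.3 to 27.2 with shCtr, 11.3 to 11.8 with shSIRT3-1 and 9.07 to 10.2 with shSIRT3-2. All knockdown libraries were below all controls of their line in each of the 6 comparisons, and HBL1 shSIRT3-1 replicate 3, at 11.5, lay between the other replicates of its group. Control means ran from 10.04 to 26.4 over the lines and knockdown means from 6.77 to 11.5.

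**Figure D2:**
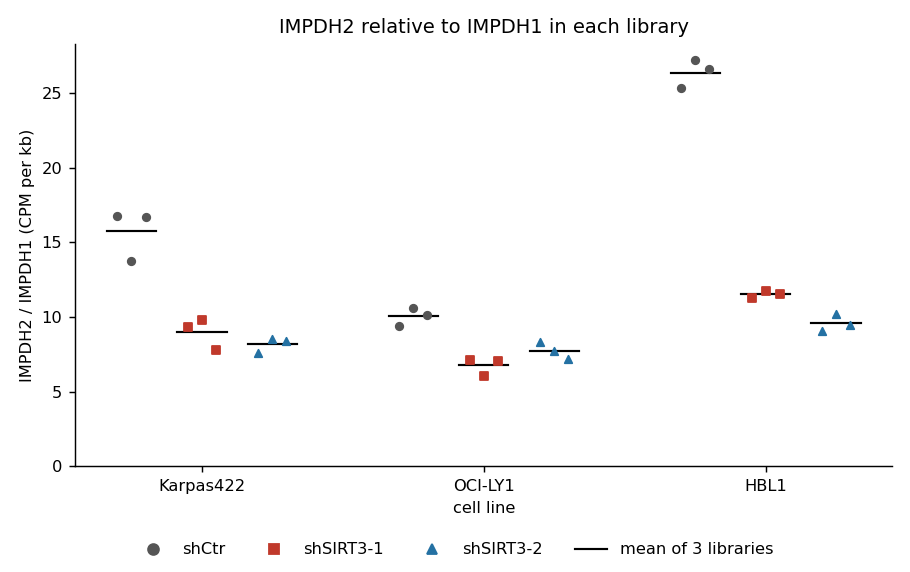
Ratio of IMPDH2 to IMPDH1, each in CPM per kb of canonical exon, in all 27 libraries on a linear axis from 0, with the mean of 3 libraries as a bar. The HBL1 controls sit at 25.3 to 27.2 and its knockdown libraries at 9.07 to 11.8, and in each line every knockdown library is below every control library.

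PPAT catalyses the committed first step of purine synthesis and is subject to feedback inhibition by purine nucleotides. In Karpas422 PPAT measured 43.9, 44.7 and 42.3 CPM with shCtr, 38.8, 41.3 and 39.5 with shSIRT3-1, and 41.2, 45.0 and 36.2 with shSIRT3-2. In OCI-LY1 it measured 40.6, 39.6 and 36.2 CPM with shCtr, 36.5, 31.0 and 37.4 with shSIRT3-1, and 41.0, 40.0 and 39.7 with shSIRT3-2. In HBL1 it measured 22.7, 21.7 and 19.0 CPM with shCtr, 17.96, 18.2 and 12.0 with shSIRT3-1, and 25.5, 26.2 and 21.3 with shSIRT3-2. The shSIRT3-1 libraries lay below all controls in Karpas422 and HBL1 and overlapped them in OCI-LY1, and the shSIRT3-2 libraries overlapped the controls in every line. Over the lines PPAT fell by 0.23 on the log2 scale with shSIRT3-1 (SE 0.09, adjusted p = 0.032, limma) and measured 0.05 with shSIRT3-2 (95% confidence interval -0.12 to 0.23). PPAT was the only enzyme of the 10 that passed when the hairpins were compared with each other, with a level 0.28 higher on the log2 scale in shSIRT3-2 than in shSIRT3-1 cells (SE 0.09, adjusted p = 0.013, 31.7% of genes passed). This difference was 0.12 without the HBL1 line (adjusted p = 0.22). The fall with shSIRT3-1 did not pass with quantile normalization or median-ratio scaling (adjusted p = 0.073 in each), in the edgeR test (0.077) or without HBL1 shSIRT3-1 replicate 3 (0.055).

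PFAS catalyses a later, glutamine-consuming step of the same route. In Karpas422 PFAS measured 52.4, 43.6 and 52.8 CPM with shCtr, 54.3, 55.4 and 58.6 with shSIRT3-1, and 62.7, 57.5 and 44.8 with shSIRT3-2. In OCI-LY1 it measured 66.4, 54.2 and 50.5 CPM with shCtr, 75.3, 70.6 and 70.0 with shSIRT3-1, and 76.1, 68.5 and 69.8 with shSIRT3-2. In HBL1 it measured 31.1, 28.0 and 20.8 CPM with shCtr, 37.7, 38.6 and 21.2 with shSIRT3-1, and 33.5, 36.1 and 31.6 with shSIRT3-2. The knockdown libraries were above all controls in 4 of 6 comparisons, both of those in OCI-LY1 among them, and overlapped them with shSIRT3-2 in Karpas422 and with shSIRT3-1 in HBL1. Of all genes tested, 30.9% to 60.9% had no overlap in these comparisons, in either direction. Over the lines PFAS rose by 0.26 on the log2 scale with shSIRT3-1 (SE 0.10, adjusted p = 0.039, limma) and by 0.28 with shSIRT3-2 (SE 0.10, adjusted p = 0.029). Neither call held without OCI-LY1 shCtr replicate 2 (adjusted p = 0.065 and 0.051), although its PFAS value of 54.2 CPM lay between those of the other OCI-LY1 controls.

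PAICS, the bifunctional enzyme that acts after PFAS and shares its upstream region with PPAT, measured 0.10 on the log2 scale with shSIRT3-1 and 0.12 with shSIRT3-2 (95% confidence intervals -0.20 to 0.41 and -0.19 to 0.42). In CPM per kb the ratio of PAICS to PPAT was 1.93 to 3.11 in the 9 control libraries. The ratio was above all controls of the line with shSIRT3-1 in OCI-LY1 (3.37 to 3.48, against 2.52 to 3.11) and with shSIRT3-2 in HBL1 (2.78 to 2.88, against 2.06 to 2.34), and overlapped them in the other 4 comparisons. This ratio too was chosen after values were seen and was not tested.

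The remaining enzymes of the group did not pass over the 3 lines with either hairpin. GART measured -0.05 on the log2 scale with each hairpin (95% confidence interval -0.24 to 0.14). ADSL, which acts both before IMP and on the way to AMP, measured 0.25 with shSIRT3-1 and 0.22 with shSIRT3-2 (adjusted p = 0.079 and 0.11), and passed in both when HBL1 shSIRT3-1 replicate 3 was left out (adjusted p = 0.0063 and 0.049). ATIC measured -0.11 and -0.09 (95% confidence intervals -0.34 to 0.11 and -0.31 to 0.14). CAD, the multifunctional protein that starts pyrimidine synthesis, measured 0.03 and 0.22 (95% confidence intervals -0.24 to 0.31 and -0.05 to 0.50). DHODH, the mitochondrial enzyme that passes electrons to ubiquinone, measured -0.16 and -0.13 (SE 0.07 in each, adjusted p = 0.10 and 0.19).

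**Figure D3:**
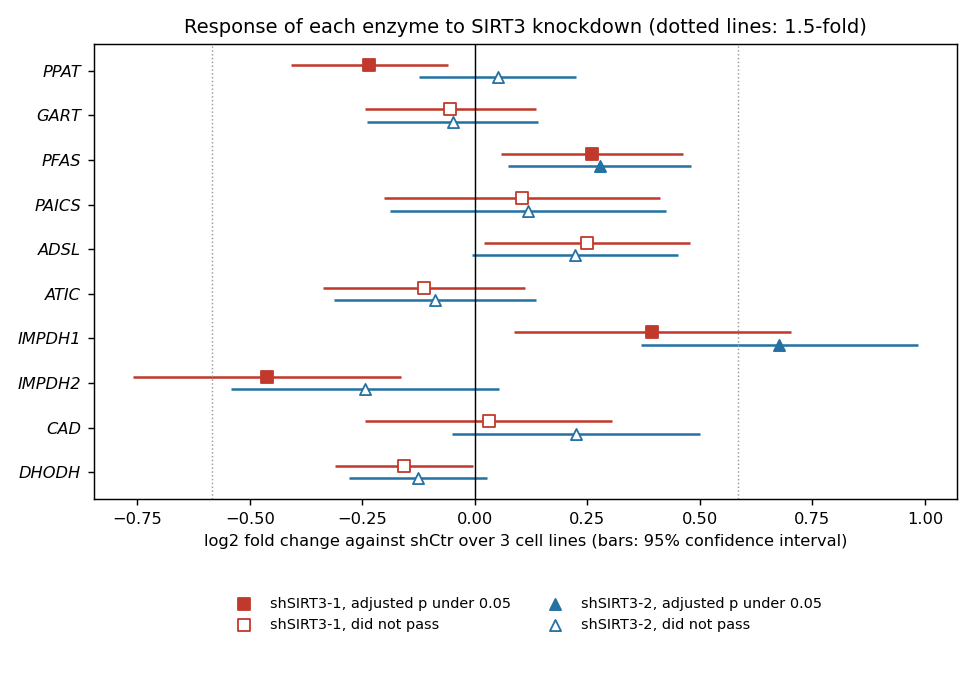
Log2 fold change of each enzyme against shCtr over the 3 cell lines, with 95% confidence intervals, for shSIRT3-1 (squares) and shSIRT3-2 (triangles); filled marks passed an adjusted p of 0.05 and dotted lines stand at 1.5-fold. IMPDH1 lies to the right of 0 with both hairpins and IMPDH2 to the left, and IMPDH1 with shSIRT3-2 is the only point past a dotted line.

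The lines were then fitted one at a time, which asks where the enzymes moved. In Karpas422, ADSL and IMPDH1 were higher with shSIRT3-1, 2 of 10 against 33.7% of genes (11.6% higher). ADSL measured 71.8, 54.6 and 75.2 CPM in Karpas422 with shCtr, 104, 97.4 and 96.0 with shSIRT3-1, and 85.6, 79.2 and 60.5 with shSIRT3-2. The shSIRT3-1 libraries were all above the controls, a rise of 0.57 on the log2 scale (SE 0.15, adjusted p = 0.016, limma), whereas with shSIRT3-2 the groups overlapped and the value was 0.16 (adjusted p = 0.45). IMPDH1 rose by 0.56 with shSIRT3-1 (SE 0.13, adjusted p = 0.012) and by 0.54 with shSIRT3-2 (SE 0.13, adjusted p = 0.014), the latter being the single enzyme of 10 to pass with that hairpin against 31.1% of genes (14.7% higher).

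In OCI-LY1 no enzyme passed with either hairpin, where 7.31% and 9.42% of genes passed. The edgeR test on the recovered reads also gave 0 adjusted calls for each hairpin, where 8.15% and 10.7% of genes passed. In this line and in HBL1 libraries of the same replicate number deviated together, and with the replicate number as a block PFAS (0.35, adjusted p = 0.037) and IMPDH1 (0.43, adjusted p = 0.026) passed with shSIRT3-1 and PFAS (0.33, adjusted p = 0.036) with shSIRT3-2, where 13% and 15.9% of genes passed. DHODH in OCI-LY1 measured 6.53, 8.51 and 7.97 CPM with shCtr, 5.97, 6.04 and 6.01 with shSIRT3-1, and 6.28, 5.35 and 6.22 with shSIRT3-2. Its knockdown libraries all lay below the controls with either hairpin, with values of -0.34 and -0.36 on the log2 scale that did not pass (adjusted p = 0.13 and 0.11).

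HBL1 held the lowest and the highest of the 60 fitted log2 changes. With shSIRT3-1, IMPDH2 fell by 1.00 on the log2 scale (SE 0.27, adjusted p = 0.019, limma), the 1 enzyme of 10 to pass against 40% of genes (25.1% lower). Without replicate 3 of that group the value was -0.62 (adjusted p = 0.0010). With shSIRT3-2, IMPDH1 rose 2.26-fold (log2 1.17, SE 0.27, adjusted p = 0.010), again 1 of 10, against 34.7% of genes (13.5% higher). With the replicate block, PPAT (adjusted p = 0.014), GART (0.018) and ATIC (0.027) were also lower with shSIRT3-1, and ADSL and CAD (0.043 each) also higher with shSIRT3-2, which made 4 and 3 of 10 against 49.8% and 44.7% of genes. Without HBL1 shSIRT3-1 replicate 3 the picture with shSIRT3-1 was different: PFAS (log2 0.54, adjusted p = 0.021), PAICS (0.43, adjusted p = 0.016) and IMPDH1 (0.57, adjusted p = 0.0013) were higher and IMPDH2 alone lower, 4 of 10 against 46.9% of genes. That fit had no block and kept replicate 3 of the HBL1 controls. This control was below both others for 7 of the 10 enzymes (median log2 difference -0.21), so the rises may be overstated. With that library left out of the shared estimate of spread, PAICS (0.54, adjusted p = 0.0029), CAD (0.56, adjusted p = 0.010) and IMPDH1 were higher and IMPDH2 lower (-0.28, adjusted p = 0.020) with shSIRT3-2, 4 of 10 against 53.2% of genes.

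CAD in HBL1 measured 174, 139 and 114 CPM with shCtr, 157, 181 and 90.0 with shSIRT3-1, and 201, 221 and 199.9 with shSIRT3-2. PAICS measured 90.3, 77.5 and 76.9 CPM with shCtr, 109, 111 and 46.8 with shSIRT3-1, and 123, 131 and 103 with shSIRT3-2. ATIC measured 120.2, 114 and 96.3 CPM with shCtr, 92.7, 102 and 58.8 with shSIRT3-1, and 121, 126 and 107 with shSIRT3-2. For CAD and PAICS the shSIRT3-2 libraries lay above all controls, whereas with shSIRT3-1 a single low library widened the spread to both sides of the controls, and for ATIC the groups overlapped with either hairpin.

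Whether the response differed between lines was tested with the interaction of line and shRNA. ATIC (adjusted p = 0.034, limma F test) and IMPDH1 (adjusted p = 0.023) passed, 2 of 10 against 41.8% of genes. With the replicate block, PPAT (adjusted p = 0.011), GART (0.027), ADSL (0.010) and IMPDH2 (0.023) passed as well, 6 of 10 against 58.8% of genes. For IMPDH1 the line values ran from 0.20 (HBL1) to 0.56 (Karpas422) with shSIRT3-1 and from 0.31 (OCI-LY1) to 1.17 (HBL1) with shSIRT3-2. Without HBL1 shSIRT3-1 replicate 3 the HBL1 value with shSIRT3-1 was 0.57. For ATIC they ran from -0.42 (HBL1) to 0.10 (Karpas422) with shSIRT3-1 and from -0.21 (Karpas422) to 0.10 (HBL1) with shSIRT3-2. The ATIC call was lost without HBL1 shSIRT3-1 replicate 3 (adjusted p = 0.073) and the IMPDH1 call held (adjusted p = 0.0058). Counting libraries rather than tests, the 3 knockdown libraries were clear of the 3 controls for 4 enzymes with shSIRT3-1 and 2 with shSIRT3-2 in Karpas422, against 51.2% and 47% of genes. The counts were 3 and 2 for OCI-LY1 (30.9% and 33.3% of genes) and 3 and 5 for HBL1 (50.9% and 60.9% of genes).

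**Figure D4:**
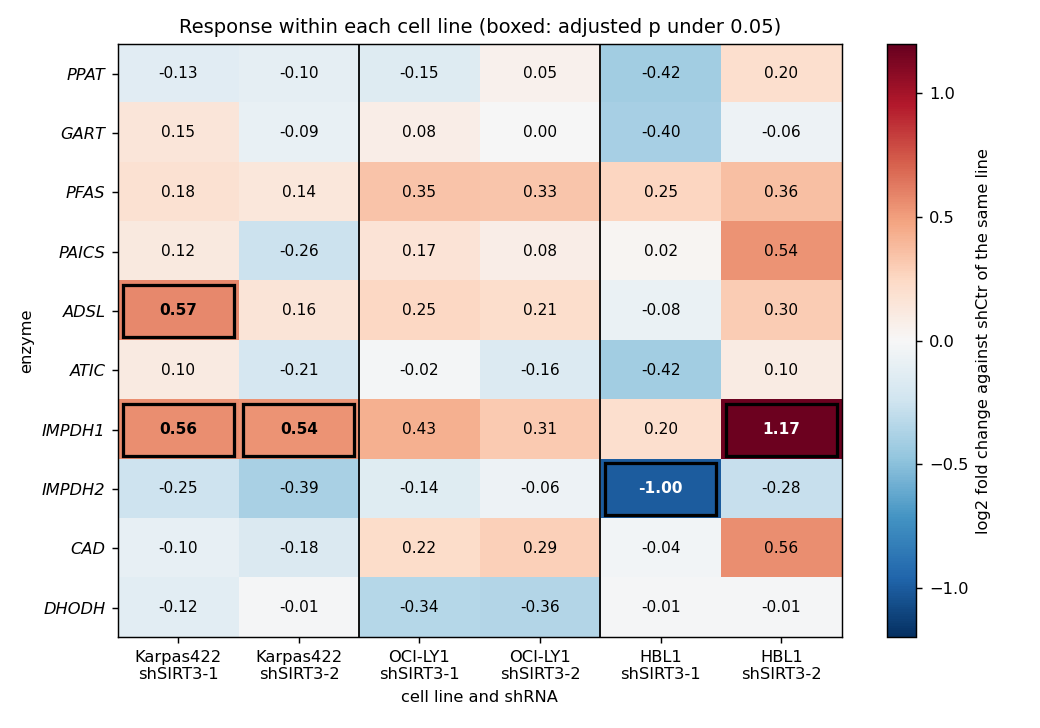
Log2 fold change of each enzyme against shCtr of the same line, from the fits of single lines without a block; boxes mark an adjusted p under 0.05. The 5 boxed cells are ADSL and IMPDH1 in Karpas422 shSIRT3-1, IMPDH1 in Karpas422 shSIRT3-2, IMPDH2 in HBL1 shSIRT3-1 and IMPDH1 in HBL1 shSIRT3-2.

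Other genes of nucleotide metabolism were counted from lists chosen for their roles. Of all genes tested over the lines, 15.6% were higher and 22.3% lower with shSIRT3-1, and 16.3% higher and 21.7% lower with shSIRT3-2. These shares stand beside the pooled counts against shCtr of every list below. Of 9 further de novo genes tested, 3 were lower with shSIRT3-1, and 3 were lower and 1 higher with shSIRT3-2. With both hairpins CTPS2, a CTP synthase, fell (log2 -0.82 and -0.70), as did PRPSAP1, a partner of phosphoribosyl pyrophosphate synthetase (-0.29 and -0.25). Of 7 purine salvage genes, 2 were higher and 1 lower with each hairpin, where ADA, adenosine deaminase, fell (-0.65 and -0.83) and PNP, purine nucleoside phosphorylase, rose (0.62 and 0.57). Of 7 pyrimidine salvage genes, 3 were lower with shSIRT3-1 and 1 with shSIRT3-2, and TK2, the mitochondrial thymidine kinase, fell with both (-0.75 and -1.24). The median log2 changes of these 3 lists lay between -0.30 and 0.08.

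Of 10 genes of deoxynucleotide supply, 2 were lower with shSIRT3-1 and 3 higher with shSIRT3-2, and 5 were higher in shSIRT3-2 than in shSIRT3-1 cells when the hairpins were compared directly. The 13 proliferation markers did likewise, with 3 lower with shSIRT3-1, 1 higher with shSIRT3-2 and 8 higher in shSIRT3-2 than in shSIRT3-1 cells, against 16.6% of genes. The summed proliferation markers ran from 453 to 1499 CPM in HBL1 with shSIRT3-1, 2246 to 2493 with shSIRT3-2 and 1398 to 2643 in its controls. Without HBL1 shSIRT3-1 replicate 3, 7 of the 13 markers and 4 of the 10 deoxynucleotide genes were higher in shSIRT3-2 than in shSIRT3-1 cells. Without OCI-LY1 shCtr replicate 2, 1 deoxynucleotide gene was higher with shSIRT3-2 against shCtr and the proliferation marker did not pass. The part of proliferation in the differences between the hairpins was not tested, and in bulk RNA fewer cells of a kind and less RNA per cell cannot be told apart. Of 13 nucleotide kinases, 1 was higher with shSIRT3-1, and 4 were higher and 3 lower with shSIRT3-2, and GUK1, guanylate kinase, rose with both (0.20 and 0.23). Of 7 nucleotide breakdown genes, 2 were lower with shSIRT3-1 and 1 with shSIRT3-2, and NT5M, a mitochondrial nucleotidase, fell with both (-1.21 and -0.85).

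Larger log2 changes stood in the lists for the pathways that supply atoms to the rings. Of 10 genes of serine synthesis and folate metabolism, which provide glycine and formyl groups to GART and ATIC, 8 were lower with shSIRT3-1 and 7 lower and 1 higher with shSIRT3-2, with median log2 changes of -1.46 and -1.37. Fitted by line, 6 of 9 genes tested were lower with each hairpin in Karpas422 (22.2% and 16.4% of all genes), and 8 and 6 of 10 in HBL1 (25.1% and 21.3%). In OCI-LY1 limma called 0 of 9 with either hairpin, where 7.31% and 9.42% of all genes passed. The medians there were -0.48 and -0.53, and edgeR called 2 of 9 with each hairpin (8.15% and 10.7% of all genes). PHGDH, the first enzyme of serine synthesis, fell with both hairpins (-2.66 and -2.41), and so did PSAT1 (-2.47 and -2.58) and PSPH (-1.65 and -1.46), which complete the route, and ALDH1L2, a mitochondrial formyltetrahydrofolate dehydrogenase (-1.596 and -1.44). Of 8 genes of glutamine and aspartate supply, 4 were lower and 1 higher with shSIRT3-1 and 4 lower with shSIRT3-2. The 4 that fell with both were ASNS, asparagine synthetase (-2.01 and -2.46), GOT1, the cytosolic aspartate aminotransferase (-1.09 and -1.29), SLC1A5, a glutamine carrier (-1.43 and -1.11), and GLUD1, glutamate dehydrogenase (-0.66 and -0.31). Fitted by line, this second list had 5 and 3 of 7 genes passing in Karpas422 with shSIRT3-1 and shSIRT3-2 (33.7% and 31.1% of all genes). The counts were 5 and 4 of 8 in HBL1 (40% and 34.7%). In OCI-LY1 1 of 8 passed with each hairpin (7.31% and 9.42%). The pooled counts of lower genes in both lists were the same without any 1 of the 3 libraries that stood apart. Of 3 transcription factors, 2 were lower with shSIRT3-1 and 1 with shSIRT3-2. ATF4, a factor of amino acid metabolism, fell over the lines (-0.91 and -1.03). MYC, known to act on nucleotide synthesis genes, measured -0.25 and -0.40 (adjusted p = 0.30 and 0.096, limma). Fitted alone, OCI-LY1 had 0 of 3 transcription factors passing with either hairpin, where 7.31% and 9.42% of all genes passed. By qPCR at earlier days the study reported unchanged ATF4 mRNA, in OCI-LY1 and Karpas422 among others, and the difference was not tested. The values of all these lists are a description, and the lists were not tested against the 10 enzymes.

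**Figure D5:**
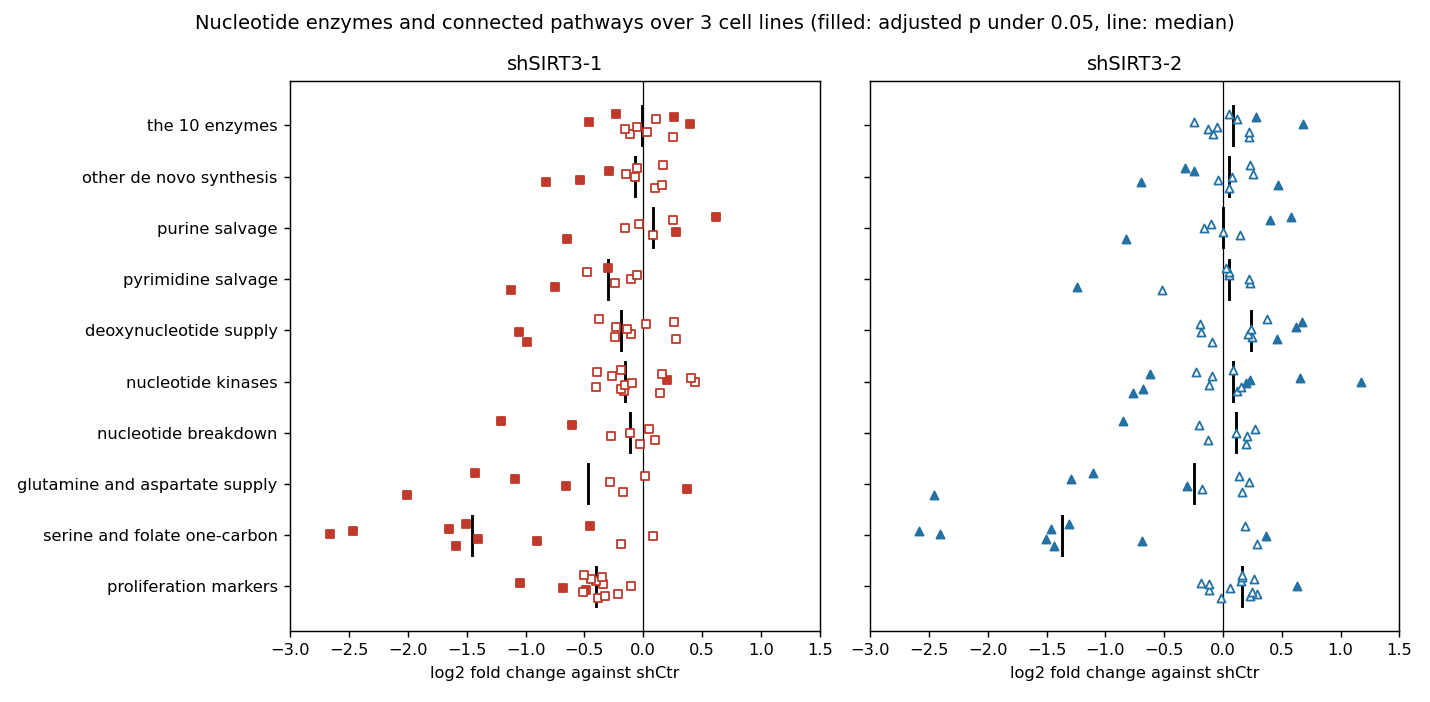
Log2 fold change of every tested gene of the 10 enzymes and of 9 connected lists over the 3 lines, for shSIRT3-1 (left) and shSIRT3-2 (right); filled marks passed an adjusted p of 0.05 and vertical bars are list medians. The enzymes and most nucleotide lists stay near 0 while the serine and folate list has medians of -1.46 and -1.37.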

How the data were processed

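RNA-seq libraries of 3 DLBCL lines had been aligned by the authors with STAR to hg19 and counted per RefSeq gene with Rsubread. The submitters labelled the deposited values FPKM, but in each library 100% of values were whole multiples of 1 step, whatever the gene's length (tolerance 0.01 read), so they were read as CPM deposited by the authors, and dividing by the step gave the reads. The values summed to 40.3 to 45.6% of the authors' divisor. Genes with at least 1 CPM in at least 3 fitted libraries were tested as log2(CPM + 0.1) with limma 3.58.1 (variance trend, R 4.3.3), with the Benjamini-Hochberg adjustment over all genes tested; fold changes on this scale understate those of low genes. The study's own test was edgeR; edgeR 4.0.16 on the recovered reads was an alternative here. Pooled fits held the line as a covariate, single-line fits used 9 libraries and control fits the 9 shCtr libraries. Scripts were tested on simulated data.

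Groups came from the labels. All 10 enzymes and SIRT3 are described; of other lists, at most 4 genes were named, those that passed with both shRNAs in 1 direction with the largest mean change, with MYC and the named markers as exceptions added after values were seen. Members and lists were chosen with earlier results of these data known. Replicate numbers were checked for pairing: deviations from group means of same-numbered libraries correlated with r of at least 0.11 in OCI-LY1 and 0.22 in HBL1 over all 9 pairs each, and in 8 of 9 pairs above 0.1 in Karpas422, where the number was not taken as a pair. Levels per kb used GENCODE canonical exons on GRCh37.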

Additional observations from a re-analysis of the deposited data

Results flagged for a closer look

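The response to SIRT3 knockdown differed between the lines for IMPDH1 and ATIC by a limma F test over the interaction of line and shRNA. For IMPDH1 the adjusted p was 0.023. Its log2 change with shSIRT3-1 was 0.56 for Karpas422, 0.43 for OCI-LY1 and 0.20 for HBL1. With shSIRT3-2 it was 0.54, 0.31 and 1.17, so HBL1 had the highest value. Without HBL1 shSIRT3-1 replicate 3 the HBL1 value with shSIRT3-1 was 0.57, so its place as the lowest rested on that library. For ATIC the adjusted p was 0.034. Its log2 change with shSIRT3-1 was 0.10 for Karpas422, -0.02 for OCI-LY1 and -0.42 for HBL1, and with shSIRT3-2 it was -0.21, -0.16 and 0.10. With the replicate block both passed (adjusted p = 0.0080 for IMPDH1 and 0.0055 for ATIC), as did PPAT, GART, ADSL and IMPDH2. Without HBL1 shSIRT3-1 replicate 3 the ATIC call was lost (adjusted p = 0.073), and without the HBL1 line both were (adjusted p = 0.68 for IMPDH1 and 0.70 for ATIC).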

How the results depend on the processing

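Over 175 recomputed counts of enzymes, 131 stayed within 1.5 times the reported count and 44 did not, and of 1750 recomputed single values 1631 kept their side of the threshold, 61 lost it and 58 gained it, with no called value changing sign. Both pseudocounts, the fit without a variance trend, edgeR and the fit on the 18 libraries of the shRNAs compared left every count within that range. Without a filter on low values, 2 enzymes passed with shSIRT3-1 over the lines and 1 in the interaction, against 23% and 27% of genes. With quantile normalization, 4 passed in the interaction (43.9% of genes), 1 in OCI-LY1 with shSIRT3-1 (9.22%) and 8 between HBL1 and Karpas422 controls (70.6%). Median-ratio scaling gave 8 between these controls too (68.1%). With shSIRT3-1 over the lines, quantile normalization, median-ratio scaling and edgeR gave 3 higher and 1 lower in place of 2 and 2, since ADSL passed and PPAT did not. In these fits 22.2%, 18.9% and 18.3% of genes were higher and 17.9%, 20% and 20.6% lower. Another scaling moved the median of all genes most in HBL1 shSIRT3-1, from -0.105 to 0.044 with quantile normalization.

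With the replicate block, 6 passed in the interaction, 2 and 1 in OCI-LY1 with shSIRT3-1 and shSIRT3-2, and 4 and 3 in HBL1; it moved no other count. The libraries that correlated best with their own number were 7 of 9 in Karpas422, 9 of 9 in OCI-LY1 and 7 of 9 in HBL1. Without OCI-LY1 shCtr replicate 2 the counts over the lines were 2 and 1, against 35.9% and 35.1% of genes. A pair of alternatives was chosen after seeing the data. Without HBL1 shSIRT3-1 replicate 3, 4 passed over the lines with shSIRT3-2 (43.4% of genes), 1 in the interaction (41.8%), and 4 in HBL1 with each hairpin (46.9% and 53.2%). Without Karpas422 shSIRT3-2 replicate 3, 4 passed over the lines with shSIRT3-2 (37.5%). Without Karpas422, 1 passed with shSIRT3-1 (29.9% of genes) and 1 in the interaction (24.4%). Without OCI-LY1, 1 passed with each hairpin (38.2% and 35.1%). Without HBL1, 0 passed between the hairpins (20.7%) and 0 in the interaction (9.74%). Leaving out a replicate number at a time gave 0 to 4 over the lines with shSIRT3-1, 1 to 3 with shSIRT3-2, 0 to 1 between the hairpins, 0 to 1 in the interaction, 0 to 2 and 0 to 3 in Karpas422, 0 to 7 with either hairpin in HBL1, 4 to 7 between HBL1 and Karpas422 controls, 6 to 7 between HBL1 and OCI-LY1 controls and 2 to 3 between Karpas422 and OCI-LY1 controls. In these fits the share of all genes that passed ran from 19.1% to 34.5% over the lines with shSIRT3-1 and from 15.4% to 35.7% with shSIRT3-2. It ran from 15.6% to 23.4% between the hairpins and from 2.71% to 36.9% in the interaction. In Karpas422 it ran from 7.04% to 41.7% and from 5.27% to 41.7%, and in HBL1 from 4.36% to 66.5% and from 2.88% to 65.4%. Between controls it was 50.7% to 62.8%. In Karpas422 and HBL1, with either hairpin, more genes passed without replicate 3 than with all libraries, and fewer without replicate 1 or 2. The causes were not tested. Whether depth limited any enzyme was not tested.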
